A study of Homo sapiens with 6 samples.

Results

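The translation initiation and elongation factors are the proteins that bring an mRNA to the ribosome, find its start codon and deliver aminoacyl-tRNA during chain growth. The set examined here holds 47 genes, taken by symbol from the 60624 Ensembl genes of the table, and all 47 had a mean of at least 1 TPM (transcript abundance scaled to a fixed library total, the deposited measure) and were tested among 14778 genes. A549, an established human lung adenocarcinoma line, was transfected for 3 days with a small interfering RNA against CEP20 (siCEP20, 3 samples) or with a control siRNA (siCTR, 3 samples). The labels do not say which CEP20 siRNA was used, call the treatment a plasmid transfection in 1 field, and do not say whether the 3 samples of a group were separate cultures, so p-values measure the spread between these samples, which may be technical. Each TPM column sums to the same total, so sequencing depth is unknown, and the values describe mRNA only, neither factor protein nor the rate of translation.

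In initiation, eIF2 carries the initiator tRNA to the small ribosomal subunit as a complex with GTP, and eIF2B recharges eIF2 with GTP. The large eIF3 complex holds the small subunit, while eIF1, eIF1A and eIF5 control the choice of the start codon. eIF4F, made of the cap-binding protein eIF4E, the helicase eIF4A and the scaffold eIF4G, recruits capped mRNA, and poly(A)-binding protein joins the mRNA tail to eIF4G. During elongation, eEF1A delivers aminoacyl-tRNA, the eEF1B subunits exchange its nucleotide, and eEF2 moves the ribosome along. Many mRNAs of this machinery begin with a 5′ terminal oligopyrimidine (TOP) tract, by which cells set their translation through mTOR and LARP1.

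The TOP form was looked for at RefSeq transcription starts, since it is a feature that the choice of genes did not use. Of the 37 factors with an entry among the RefSeq promoters (GRCh38.p14), 11 (29.7%) had at least 1 annotated start whose first base was C followed by at least 4 bases that were each C or T, against 7.38% of 10511 tested genes with an entry. These 6 starts are shown because they cover factors that were higher, lower or not called in siCEP20 samples. Each line has 10 bases before the start and 15 from the start on, and the capitals mark the run of C and T (for EEF1B2 the run goes on beyond the line).
EEF1A1: cgtgaacgttCTTTTTCgcaacggg
EEF1B2: ctcttcgggtCCTTTTTCCTCTCTT
EIF3K: tttccaccacCTCTTCCTgttcccg
EEF2: cgtcagcgttCTCTTCCgccgtcgt
EIF4B: tcatccgggtCTTTTgcgttctctt
EIF3F: cttccgcctcCTTCTTTCTCgacaa
They lie at chr6:73521018-73521042 (minus strand), chr2:206159885-206159909 (plus), chr19:38619178-38619202 (plus), chr19:3985449-3985473 (minus), chr12:53006446-53006470 (plus) and chr11:7987327-7987351 (plus). EEF1A1, EEF1B2 and EIF3K fell in siCEP20 samples, EEF2 and EIF4B rose, and EIF3F did not pass the test. By call, the form was at a start of 4 of 10 factors that rose, 3 of 10 that fell and 4 of 17 that did not pass. A match describes these letters only and was not tested as a regulatory site.

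CEP20, the targeted gene, had 29.2, 30.5 and 35.1 TPM in the siCTR libraries and 16.2, 15.3 and 17.3 TPM in siCEP20 samples (adjusted p = 0.000205, limma). Differences between groups (siCEP20 minus siCTR, called log2 changes here) were fitted on log2(TPM + 1) with no rescaling of libraries, a scale that understates changes of low genes, and p-values were adjusted over all tested genes. Over the 14778 genes the middle log2 change was 0.13, and it was -0.01 once libraries had been scaled by the median of ratios. The A549 keratins KRT7, KRT8 and KRT18 were abundant, with siCTR means of 3893, 1587 and 1593 TPM, whereas KRT19, CDH1 and EPCAM were at 70.5, 11.8 and 1.04 TPM. Of the 8 markers of this epithelial list 7 rose and 1 fell, CDH1 and EPCAM with log2 changes of 0.92 and 1.10, and with median-of-ratios scaling 4 were higher and 1 lower. Of all tested genes, 30.2% rose and 13.2% fell at an adjusted p-value under 0.05, and 19.7% and 21.8% did with median-of-ratios scaling. The list summed to between 9930.0 and 10400.0 TPM in siCTR and between 11900.0 and 12100.0 TPM in siCEP20 libraries, rounded to 3 significant digits. Of the fibroblast and endothelial markers, 3 of 4 and 4 of 4 had means under 1 TPM, with DCN, PECAM1 and VWF at or near 0, as were the leukocyte markers PTPRC and CD3E. Markers above 1 TPM were CD14, CD68 (18.9 ± 3.97 and 33.8 ± 10.0 TPM) and COL1A1, and the fibroblast list summed to between 5.36 and 6.02 TPM in siCTR and between 17.7 and 19.9 TPM in siCEP20 samples through COL1A1. The part of any of these lists in the results below was not tested, nor can fewer cells of a type be told apart from less RNA per cell.

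The translation factors moved in both directions. At an adjusted p-value under 0.05 (limma), 14 of the 47 rose in siCEP20 samples (29.8%, where 30.2% of all tested genes did) and 12 fell (25.5%, against 13.2% of all tested genes). With the study's fold change thresholds added (over 1.5 or under 0.67), PABPC1 was higher and EIF1 and EEF1E1 were lower, against backgrounds of 11.2% and 4.61%. All 3 siCEP20 libraries exceeded all 3 siCTR libraries for 15 factors (31.9%, background 38.4%) and lay below them for 13 (27.7%, background 17.0%). Together the 47 genes held 2.34%, 2.40% and 2.43% of all TPM in siCTR and 2.26%, 2.35% and 2.34% in siCEP20 samples, so that the groups overlapped. That balance was not the same on another scale. With median-of-ratios scaling, 9 factors were higher (19.1%, background 19.7%) and 18 lower (38.3%, background 21.8%), 0 and 4 of them past the fold thresholds (backgrounds 5.92% and 7.59%), and no factor was called in opposite directions.

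**Figure D1:**
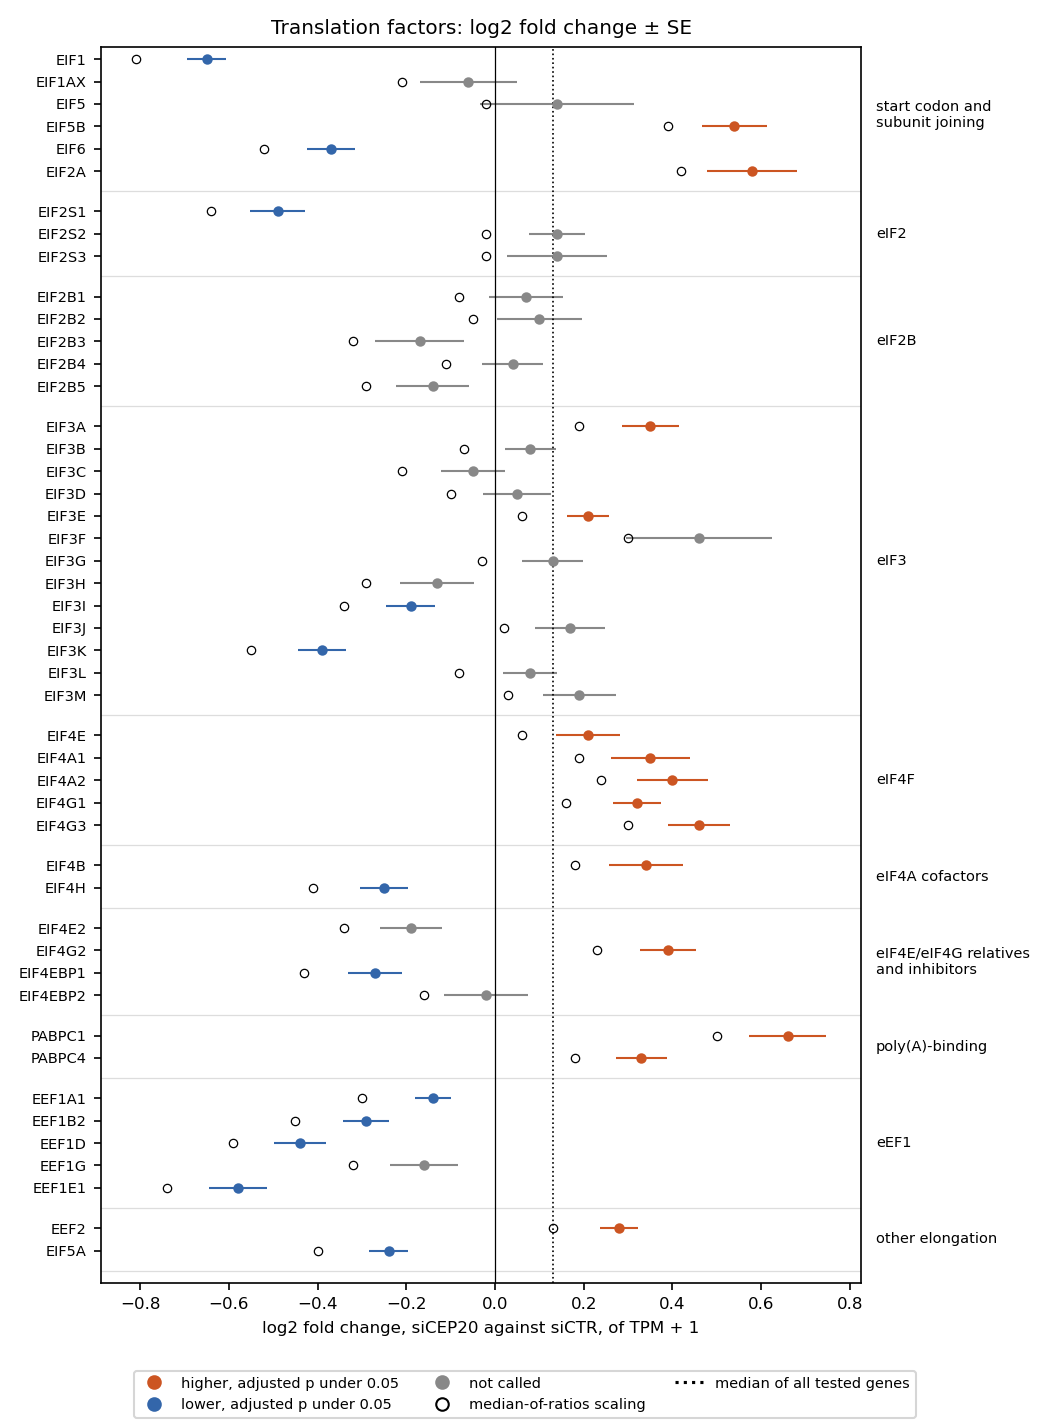
Log2 change of TPM + 1 (horizontal axis, siCEP20 against siCTR) for each of the 47 factors, grouped by complex, with bars of 1 standard error from limma. Filled points are unscaled values, open points the values after median-of-ratios scaling, and the dotted line is the median of all tested genes (0.13). All 5 eIF4F genes lie to the right of 0 and all 5 eEF1 genes to the left under both scalings, while eIF3 lies on both sides.

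Among the factors that select the start codon and join the subunits, EIF1 fell most, and EIF6 fell with it. EIF1 (ENSG00000173812, hg38 chr17:41688885-41692668), which keeps the scanning complex open until it meets a good start codon, was at 1439.8, 1398 and 1408 TPM in siCTR and at 872, 904 and 929 TPM in siCEP20 samples. The 3 siCEP20 libraries lay far below the 3 siCTR libraries, at 63.7% of the control mean (1415 ± 21.9 against 902 ± 28.6 TPM, SD, n = 3 each). Its log2 change was -0.65 (standard error 0.0445, adjusted p = 5.22e-05, limma), and between -0.81 and -0.47 under the scaling alternatives. Its paralog EIF1B, outside the set, was at 73.0 ± 5.01 and 56.6 ± 6.54 TPM (log2 change -0.37, adjusted p = 0.0156, limma).

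EIF6, which keeps ribosomal subunits apart, was at 354, 362 and 366 TPM in siCTR and at 266, 295 and 279 TPM in siCEP20 samples. The groups did not overlap, and the log2 change was -0.37 (adjusted p = 0.00114, limma). EIF5B, the GTPase of subunit joining, moved the other way, from 27.5, 31.2 and 31.0 TPM to 43.5, 45.2 and 43.3 TPM (log2 change 0.54, adjusted p = 0.000762, limma). EIF2A, a single-chain initiator tRNA-binding factor that is no subunit of eIF2, was at 74.9, 80.85 and 70.2 TPM against 129, 112 and 98.3 TPM. It rose by a log2 change of 0.58 (standard error 0.102, adjusted p = 0.00279, limma), and SERP1, which overlaps it on the opposite strand, had a log2 change of -0.30 (adjusted p = 0.00867).

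EIF5, the GTPase activator of eIF2, did not pass the test, and siCTR replicate 3 stood apart from the other controls. Its TPM was 116, 128 and 199 in siCTR samples and 157, 162 and 155 in siCEP20 samples (log2 change 0.14, adjusted p = 0.548, limma). Without siCTR replicate 3 the log2 change was 0.37 (adjusted p = 0.00501). EIF1AX, for eIF1A, was at 35.2 ± 4.05 and 33.9 ± 3.85 TPM, with overlapping groups.

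In eIF2, the alpha subunit alone passed the test. EIF2S1 (ENSG00000134001, hg38 chr14:67360328-67386516), which carries the serine that stress kinases phosphorylate, was at 62.5, 65.2 and 66.7 TPM in siCTR and at 44.1, 47.3 and 46.2 TPM in siCEP20 samples. Each siCEP20 value was below each siCTR value (64.8 ± 2.11 against 45.9 ± 1.63 TPM, SD, n = 3 each), and the log2 change was -0.49 (standard error 0.0615, adjusted p = 0.000563, limma). The beta subunit gene EIF2S2 was at 153, 149.7 and 171 TPM against 173, 177 and 171 TPM, and the gamma subunit gene EIF2S3 at 192, 179 and 224 TPM against 199, 253 and 203 TPM. Both had a log2 change of 0.14 with overlapping groups (adjusted p = 0.113 and 0.364, limma). EIF2S2 has 7 annotated processed copies with 19.2 ± 4.05 TPM in siCTR and 36.7 ± 1.00 TPM in siCEP20 samples, and with their TPM added its log2 change was 0.25 (adjusted p = 0.0186, limma), a calculation chosen after seeing the data.

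No gene of eIF2B passed the test on the unscaled values, where 30.2% of all tested genes rose and 13.2% fell. Groups were separate in 38.4% (siCEP20 higher) and 17.0% (siCEP20 lower) of all tested genes. The 5 subunit genes had log2 changes between -0.17 and 0.10, with overlapping groups in each, and summed to 202 ± 2.69 TPM in siCTR and 202 ± 11.5 TPM in siCEP20 samples. EIF2B3, with the largest change, was at 21.9, 20.2 and 22.4 TPM against 17.0, 18.3 and 21.7 TPM (adjusted p = 0.198, limma). EIF2B3 and EIF2B5, subunits of the catalytic part, were called lower with median-of-ratios scaling (log2 changes -0.32 and -0.29, adjusted p = 0.0332 and 0.0305, limma). Both were also called lower with quantile normalization (-0.31 and -0.27, adjusted p = 0.0378 and 0.0333, limma). With length and GC regressed out EIF2B5 was called lower (-0.27, adjusted p = 0.034) and EIF2B3 was not (-0.27, adjusted p = 0.0513, limma).

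The eIF3 genes as a sum were level on the unscaled values, with 3200.4 ± 66.0 TPM in siCTR and 3172 ± 110 TPM in siCEP20 samples, but single subunits moved in both directions. Abundant subunits weigh most in such a sum. The median log2 change of the 13 genes was 0.08 unscaled and -0.07 with median-of-ratios scaling. EIF3A and EIF3E rose, EIF3K and EIF3I fell, and the other 9 of 13 did not pass. The shares over all tested genes were 30.2% higher and 13.2% lower. EIF3K (ENSG00000178982, hg38 chr19:38619082-38636955), a peripheral subunit and by TPM the most abundant eIF3 mRNA, was at 816, 899 and 873 TPM in siCTR and at 635, 687 and 648 TPM in siCEP20 samples. The groups were well apart, with a log2 change of -0.39 (standard error 0.0551, adjusted p = 0.000946, limma). EIF3I, part of the b-g-i module near the mRNA entry side, was at 314, 313 and 292 TPM against 258, 269 and 281 TPM (log2 change -0.19, adjusted p = 0.0268, limma), and it lost its call without any 1 of 4 libraries (siCTR replicates 1 and 2, siCEP20 replicates 1 and 2), with an adjusted p up to 0.0858.

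EIF3A, the largest subunit and a scaffold of the complex, was at 109.7, 124 and 125 TPM in siCTR and at 149.8, 152 and 155 TPM in siCEP20 samples (log2 change 0.35, adjusted p = 0.00356, limma). EIF3E was at 297, 287 and 288 TPM against 327, 343 and 341 TPM (log2 change 0.21, adjusted p = 0.00791, limma). Neither EIF3A nor EIF3E passed the test once transcript length and GC were regressed out, where each had a log2 change of 0.10, and with median-of-ratios scaling EIF3E was at 0.06 (adjusted p = 0.438). EIF3F had the largest eIF3 value, 0.46, but scattered libraries, with 161, 154 and 195 TPM in siCTR and 250.2, 178 and 284 TPM in siCEP20 samples (adjusted p = 0.0531, limma). Without siCEP20 replicate 2, its low library, EIF3F had a log2 change of 0.65 (adjusted p = 0.00554), and without siCTR replicate 3 it had 0.56 (adjusted p = 0.0418). Leaving out any other library gave an adjusted p from 0.142 to 0.152. EIF3F did not pass with median-of-ratios scaling (0.30, adjusted p = 0.204), quantile normalization (0.42, adjusted p = 0.1) or length and GC regressed out (0.21, adjusted p = 0.398, limma).

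EIF3B, EIF3C, EIF3D, EIF3G, EIF3H, EIF3J, EIF3L and EIF3M had log2 changes between -0.13 and 0.19 and did not pass. EIF3C and EIF3CL are near-identical copies on chromosome 16 that can share reads, and their summed TPM was 245 ± 10.3 in siCTR and 247 ± 9.74 in siCEP20 samples. In the list of the 8 genes for the eIF3 octamer (a, c, e, f, h, k, l and m), 2 rose and 1 fell, with a median log2 change of 0.13, and with median-of-ratios scaling 1 was higher and 3 lower (median -0.02), EIF3C and EIF3H being added. In the b-g-i module 0 rose and 1 of 3 fell (limma; 1 of 3 was also lower with median-of-ratios scaling). Of all tested genes, 30.2% rose and 13.2% fell, with a median log2 change of 0.13. With median-of-ratios scaling 19.7% were higher and 21.8% lower, with a median of -0.01.

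**Figure D2:**
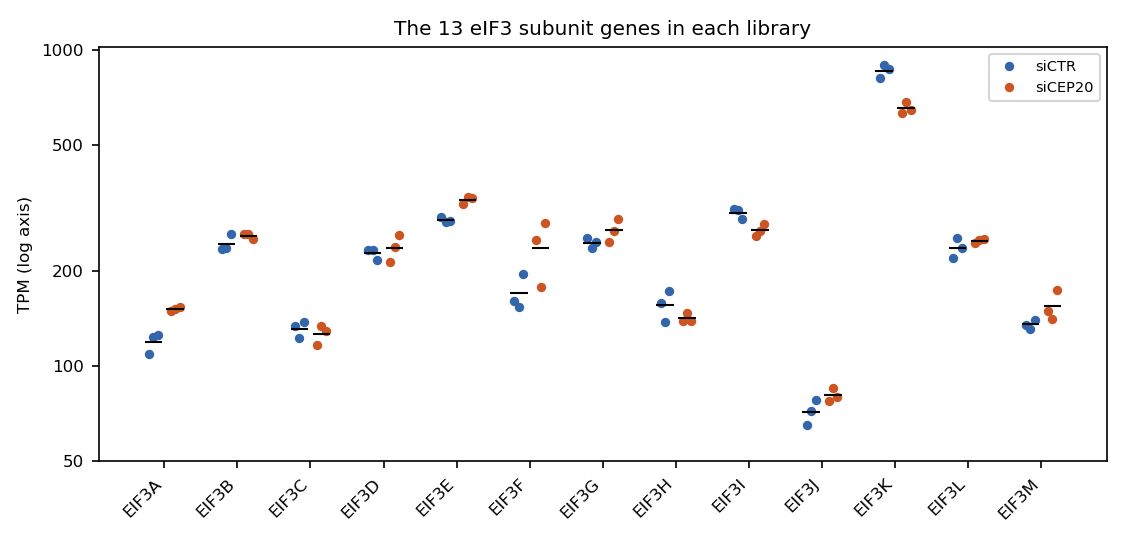
TPM (vertical log axis) of the 13 eIF3 subunit genes in the 3 siCTR and 3 siCEP20 libraries (points), with group means as black lines. EIF3K is lower in each siCEP20 library, EIF3A and EIF3E are higher in each, and the points of most other subunits overlap.

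The 5 genes of eIF4F rose together on the unscaled values, and no siCEP20 value overlapped a siCTR value in any of them. Among all tested genes 30.2% rose, and 38.4% had every siCEP20 library above every siCTR library. EIF4G3 (ENSG00000075151, hg38 chr1:20806292-21177285), a scaffold paralog, was at 28.4, 31.7 and 30.0 TPM in siCTR and at 40.6, 43.3 and 40.7 TPM in siCEP20 samples (log2 change 0.46, standard error 0.0703, adjusted p = 0.00145, limma). EIF4G1, the main scaffold, was at 207, 225 and 228 TPM against 273, 280.2 and 271 TPM, a log2 change of 0.32 (adjusted p = 0.0024, limma), which was 0.10 with length and GC regressed out and no longer passed (adjusted p = 0.0735). Both scaffold genes were thus higher in each knockdown library, EIF4G3 by the larger log2 value.

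The helicase genes rose by similar steps. EIF4A1 was at 905, 1118 and 980.1 TPM in siCTR and at 1165, 1383 and 1277 TPM in siCEP20 samples (log2 change 0.35, adjusted p = 0.0139, limma). EIF4A2 was at 144, 165 and 151 TPM against 187, 198 and 222 TPM (log2 change 0.40, adjusted p = 0.005, limma). EIF4A1 missed the threshold without siCEP20 replicate 2 (adjusted p = 0.0506), and it shares its strand with the readthrough gene SENP3-EIF4A1 (92.8 TPM in siCTR samples), so its reads can be split.

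The cap-binding gene EIF4E was much less abundant, at 23.7, 25.5 and 24.7 TPM in siCTR and at 27.2, 28.6 and 29.9 TPM in siCEP20 samples. Its log2 change of 0.21 was close to the threshold (adjusted p = 0.0451, limma), and leaving out any 1 of the 6 libraries ended the call (adjusted p from 0.0571 to 0.135). EIF4E has 5 annotated processed copies with 13.7 ± 2.51 TPM in siCTR and 15.6 ± 0.405 TPM in siCEP20 samples, so reads can be shared. With the TPM of these copies added, chosen after seeing the data, EIF4E was at 0.20 and did not pass (adjusted p = 0.0666, limma). With median-of-ratios scaling the 5 eIF4F genes kept positive log2 changes with a median of 0.19, and EIF4E and EIF4A1 were no longer called (adjusted p = 0.484 and 0.0713).

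The helicase cofactors moved apart. EIF4B was at 369, 406 and 469 TPM in siCTR and at 511, 538 and 519.7 TPM in siCEP20 samples (log2 change 0.34, adjusted p = 0.0118, limma), whereas EIF4H was at 328, 341 and 327 TPM against 273, 295 and 267 TPM (-0.25, adjusted p = 0.0068, limma). Each had separate groups. EIF4H was lower under all 3 scaling alternatives, and EIF4B was at 0.18 with median-of-ratios scaling (adjusted p = 0.0502) and at 0.15 with length and GC regressed out (adjusted p = 0.0768).

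Of the relatives and inhibitors, EIF4G2 rose and EIF4EBP1 fell. EIF4G2, for DAP5, an eIF4G relative that does not bind eIF4E, was at 471, 523 and 547 TPM in siCTR and at 668, 689 and 653 TPM in siCEP20 samples (log2 change 0.39, adjusted p = 0.00185, limma). CTR9, which overlaps it on the opposite strand, had a log2 change of 0.43 (adjusted p = 0.00153). EIF4EBP1, for an inhibitor that competes with eIF4G for eIF4E until mTOR phosphorylates it, was at 377, 377 and 421 TPM against 309.7, 330.2 and 332 TPM (log2 change -0.27, adjusted p = 0.00851, limma). EIF4EBP2, for a second inhibitor, was at 9.65, 10.9 and 10.7 TPM against 9.55, 11.1 and 10.2 TPM, with overlapping groups (adjusted p = 0.894, limma). EIF4E2, for a cap-binding relative used in repression, was at 77.7, 83.3 and 89.6 TPM against 76.2, 72.5 and 70.6 TPM, and its groups were separate without passing the test (adjusted p = 0.059, limma). EIF4E2 was called lower with median-of-ratios scaling (-0.34, adjusted p = 0.00317) and with quantile normalization (-0.27, adjusted p = 0.0127, limma). With length and GC regressed out it did not pass (-0.17, adjusted p = 0.073, limma).

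The poly(A)-binding protein genes both rose, under each of the 3 scaling alternatives too. PABPC1, the main cytoplasmic form, had the largest increase of the 47 genes, from 621, 741 and 795 TPM in siCTR samples to 1103.5, 1181 and 1107 TPM in siCEP20 samples. The highest control stayed well below the lowest knockdown library, with means of 719 ± 89.2 and 1130.5 ± 43.7 TPM (SD, n = 3 each) and a log2 change of 0.66 (standard error 0.0871, adjusted p = 0.000722, limma). Its fold change of 1.58 came near the threshold of 1.5 and lost the fold call, not the p-value call, without siCTR replicate 1 and with median-of-ratios scaling (log2 change 0.50). PABPC4 was at 71.1, 71.2 and 72.6 TPM against 86.3, 94.3 and 91.3 TPM (log2 change 0.33, adjusted p = 0.0025, limma).

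**Figure D3:**
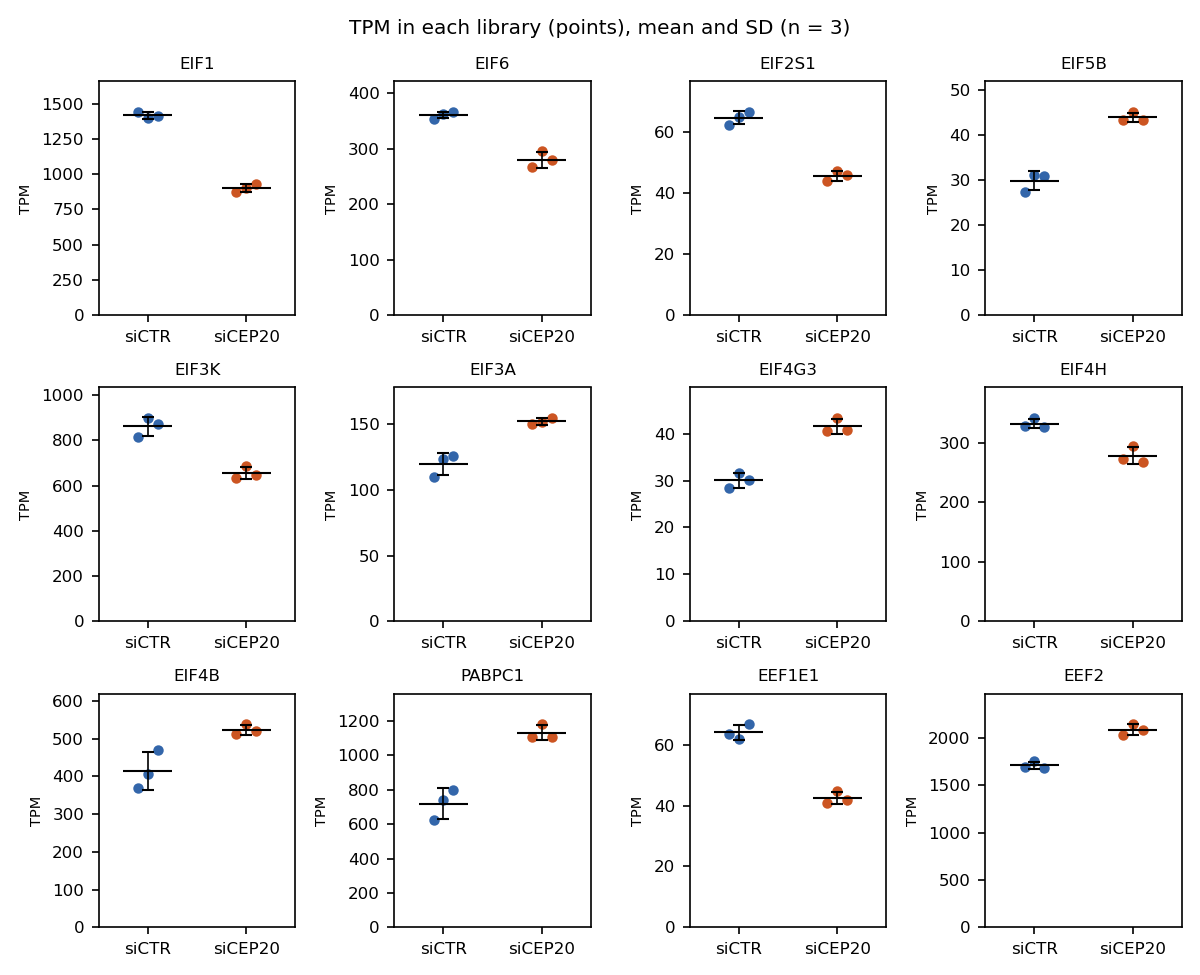
TPM of 12 factors in the siCTR and siCEP20 libraries (points), with mean and SD (n = 3 each) and vertical axes from 0. The groups do not overlap in any of the 12: EIF1, EIF6, EIF2S1, EIF3K, EIF4H and EEF1E1 are lower in siCEP20 samples, and EIF5B, EIF3A, EIF4G3, EIF4B, PABPC1 and EEF2 are higher.

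In elongation, 4 of the 5 eEF1 genes fell in siCEP20 samples, where 13.2% of all tested genes did, and EEF2 rose. EEF1E1 (ENSG00000124802, hg38 chr6:8073360-8102559) was grouped with eEF1 by its symbol, and its product is a scaffold of the multi-synthetase complex. Its TPM was 63.5, 61.9 and 66.8 in siCTR and 41.0, 44.7 and 41.7 in siCEP20 samples. All siCEP20 values were far below the controls, with a log2 change of -0.58 (standard error 0.065, adjusted p = 0.000337, limma) and a fold change of 0.668, just inside the threshold of 0.67. EEF1E1 lost the fold call without siCTR replicate 3, siCEP20 replicate 1 or siCEP20 replicate 3. The fold call was also lost with the TPM of copies added, a calculation chosen after seeing the data. AIMP2, another scaffold of the multi-synthetase complex and no member of the set, had a log2 change of 0.29 (adjusted p = 0.00269, limma). With median-of-ratios scaling AIMP2 was at 0.13 and did not pass (adjusted p = 0.056, limma). It was called higher with length and GC regressed out (0.28, adjusted p = 0.00186) and with quantile normalization (0.24, adjusted p = 0.0051, limma).

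The guanine nucleotide exchange subunits fell by smaller amounts. EEF1D was at 841, 879 and 781 TPM against 591, 642.5 and 612 TPM (log2 change -0.44, adjusted p = 0.000789, limma), and EEF1B2 at 1211, 1189 and 1212.5 TPM against 923, 1016 and 1020.0 TPM (-0.29, adjusted p = 0.00292, limma). EEF1G, the structural subunit, was at 2199.6, 2022 and 2493 TPM against 2048, 1910.4 and 2036 TPM, where the groups overlapped (log2 change -0.16, adjusted p = 0.125, limma). With median-of-ratios scaling EEF1G was called lower (-0.32, adjusted p = 0.0175, limma). It did not pass with length and GC regressed out (-0.18, adjusted p = 0.0934) or quantile normalization (0.00, adjusted p = 0.98, limma). EEF1B2 missed the threshold with quantile normalization (log2 change -0.11, adjusted p = 0.0618).

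EEF1A1, the tRNA carrier and the most abundant mRNA of the set, was at 6508, 6632 and 6400.0 TPM in siCTR and at 5780.5, 5909 and 6001 TPM in siCEP20 samples. The groups were separate, at 90.5% of the control mean (log2 change -0.14, adjusted p = 0.0209, limma), but quantile normalization gave 0.02 (adjusted p = 0.75), and the call was also lost without siCTR replicate 2 or siCEP20 replicates 1 or 2 (adjusted p up to 0.0821). Its 49 annotated processed copies held 820.0 ± 12.1 TPM in siCTR and 798 ± 32.2 TPM in siCEP20 samples. The paralog EEF1A2, outside the set, rose from 158, 172 and 162 TPM to 214, 233 and 245 TPM (log2 change 0.49, adjusted p = 0.000771, limma; called under median-of-ratios scaling too).

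EEF2, the translocase, was at 1698, 1756 and 1685 TPM in siCTR and at 2034, 2147 and 2079 TPM in siCEP20 samples, a rise in every library (log2 change 0.28, standard error 0.0436, adjusted p = 0.0014, limma). With median-of-ratios scaling it was at 0.13 and did not pass (adjusted p = 0.0675). EEF2 was called higher with length and GC regressed out (0.13, adjusted p = 0.024) and with quantile normalization (0.47, adjusted p = 0.000241, limma). EIF5A, which helps the ribosome past stretches such as proline runs, was at 1503, 1516 and 1483 TPM against 1253.5, 1314 and 1240.5 TPM (log2 change -0.24, adjusted p = 0.00294, limma). Quantile normalization brought EIF5A to 0.00 (adjusted p = 0.972), and its opposite-strand neighbour GPS2 had a log2 change of 0.64 (adjusted p = 0.00032).

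Ratios of partner genes within a library do not depend on the scale between libraries. They can still follow transcript length, since the annotated canonical transcripts of EIF4EBP1 and EIF4E have 827 and 2427 bases. With length and GC regressed out these 2 genes had log2 changes of -0.20 and 0.08, against -0.27 and 0.21 on the unscaled values. The part of length in the ratios was not tested. The EIF4EBP1 to EIF4E ratio was 15.9, 14.8 and 17.0 in siCTR samples and 11.4, 11.5 and 11.1 in siCEP20 samples, so that inhibitor mRNA stood lower against cap-binding mRNA in each knockdown library. The EIF2S1 to EIF2S3 ratio was 0.326, 0.364 and 0.297 against 0.222, 0.187 and 0.228, and the EIF1 to EIF5 ratio 12.4, 10.9 and 7.08 against 5.56, 5.56 and 5.98. The PABPC1 to PABPC4 ratio was 8.74, 10.4 and 11.0 against 12.8, 12.5 and 12.1. Lower too were the ratios of EIF4EBP2 to EIF4E (0.423 ± 0.0130 against 0.360 ± 0.0234), EIF4G1 to EIF4G3 (7.34 ± 0.250 against 6.62 ± 0.131) and EEF1B2 to EEF1A1 (0.185 ± 0.00517 against 0.167 ± 0.00656). The EIF4A1 to EIF4A2 ratio overlapped between groups (6.51 ± 0.251 against 6.32 ± 0.626, p = 0.6, exact permutation test). The other 7 of 8 pairs reached p = 0.1 (exact permutation, two-sided, adjusted p = 0.114 over the 8 pairs), which is the floor of a design with 3 against 3 samples, so none could pass the threshold.

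**Figure D4:**
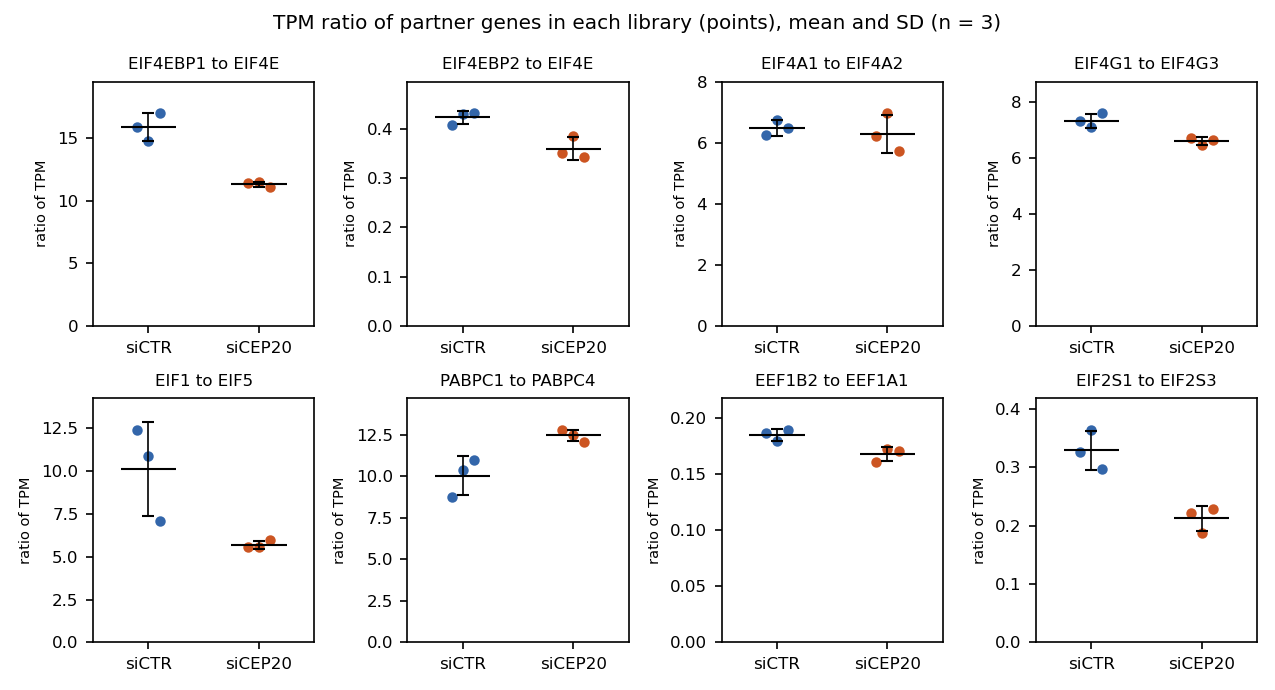
TPM ratio of 8 pairs of partner genes in each library (points), with mean and SD (n = 3 each) and vertical axes from 0. The groups are separate in 7 pairs, among them EIF4EBP1 to EIF4E at 14.8 to 17.0 in siCTR and 11.1 to 11.5 in siCEP20 samples, and overlap for EIF4A1 to EIF4A2.

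Transcript length moved with direction in these libraries, among the factors and among all genes. The canonical transcripts of the 14 factors that rose had a median length of 3476 bases and those of the 12 that fell 1342 bases, and over all tested genes the medians were 3596 and 1647 bases. Across the 47 genes, which share the same 6 libraries and are not independent, Spearman's rho between length and log2 change was 0.543, and over the 14737 tested genes with a length it was 0.254. Lengths ranged from 1758 to 6659 bases among the factors that rose and from 772 to 4154 bases among those that fell, and the part of length in these results was not tested further. With length and GC regressed out in each library, 9 factors were higher and 17 lower, with 19.9% and 21.3% of all tested genes as background. EIF5B, EIF2A, EIF4A2, EIF4G3, EIF4G2, PABPC1 and PABPC4 were called higher on the unscaled values and under all 3 scaling alternatives (median of ratios, quantile, length and GC). EIF1, EIF6, EIF2S1, EIF3I, EIF3K, EIF4H, EIF4EBP1, EEF1D and EEF1E1 were called lower under the same 4 treatments.

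**Figure D5:**
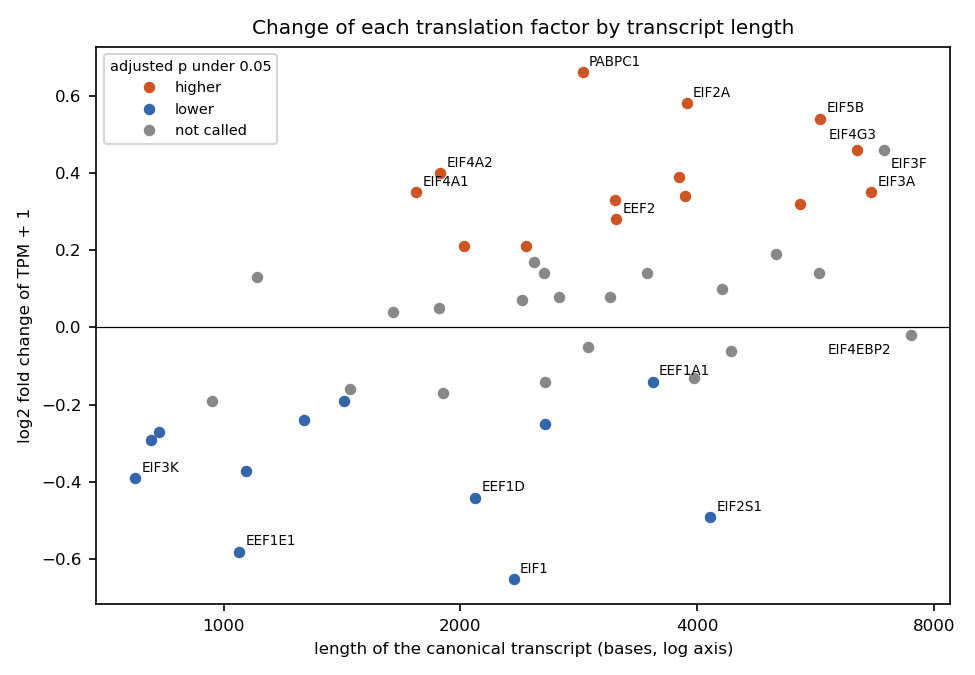
Log2 change of TPM + 1 (vertical axis, siCEP20 against siCTR) of each of the 47 factors by the length of its canonical GENCODE transcript (horizontal log axis, bases), coloured by call at an adjusted p-value under 0.05. Factors that fell have a median length of 1342 bases and those that rose 3476 bases, and the 2 ranges of length overlap.

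Genes that modify or oppose these factors were counted in the same fit, where 30.2% of all tested genes rose and 13.2% fell. With median-of-ratios scaling these backgrounds were 19.7% and 21.8%. Of 6 eIF2 kinase and phosphatase genes, 3 rose and 1 fell, and with median-of-ratios scaling 1 was higher and 1 lower. PPP1R15A, for the inducible subunit that dephosphorylates eIF2, was at 211, 203 and 203 TPM in siCTR and at 287, 303 and 317 TPM in siCEP20 samples (log2 change 0.55, adjusted p = 0.000194, limma), and the kinase gene EIF2AK1 rose by 0.28 (adjusted p = 0.0082), a call lost with median-of-ratios scaling. Of 7 genes of the response to eIF2 phosphorylation, 0 rose and 3 fell, with PSAT1 at 402 ± 35.4 against 269.8 ± 9.88 TPM and ASNS at 196 ± 12.8 against 130.3 ± 11.4 TPM (log2 changes -0.57 and -0.59, adjusted p = 0.00051 and 0.000727, limma). CHAC1 also fell, while ATF4 itself was at 681 ± 137 and 640.3 ± 77.8 TPM with overlapping groups. With median-of-ratios scaling 0 of these 7 genes were higher and 4 lower, DDIT3 being added (log2 change -0.44, adjusted p = 0.0249, limma).

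Of 11 tested regulators of cap-dependent initiation, 8 rose and 0 fell on the unscaled values, and 5 were higher and 1 lower with median-of-ratios scaling. For this list and the TOP list below, the backgrounds were 30.2% higher and 13.2% lower unscaled. They were 19.7% and 21.8% with median-of-ratios scaling. LARP1, which binds TOP mRNAs, was at 106.7, 118 and 124 TPM in siCTR and at 149, 155 and 147 TPM in siCEP20 samples (log2 change 0.37, adjusted p = 0.00285, limma), and with length and GC regressed out it was at 0.13 (adjusted p = 0.0503). PAIP2, an inhibitor of poly(A)-binding protein, was at 92.0, 100.6 and 102.6 TPM against 123, 124 and 127.5 TPM (0.34, adjusted p = 0.00275, limma). In the list of 11 factor mRNAs known as TOP mRNAs, 5 rose (PABPC1, EIF3A, EIF4B, EEF2 and EIF3E) and 3 fell (EEF1D, EEF1B2 and EEF1A1), with a median log2 change of 0.21, and with median-of-ratios scaling 2 were higher and 5 lower. That list is not the same set as the 11 factors with the form at an annotated start. Both hold EEF1A1, EEF1B2, EEF2, EIF3F and EIF4B. PABPC1, EEF1D, EEF1G, EIF3A, EIF3E and EIF3H were only in the list, and EIF3K, for example, only among the matched starts.

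Of 9 modifiers of eIF5A and eEF2, 1 rose and 2 fell (backgrounds 30.2% and 13.2%). With median-of-ratios scaling 1 was higher and 3 lower (backgrounds 19.7% and 21.8%). Both hypusine enzymes of eIF5A fell, DOHH from 18.2, 16.9 and 16.9 TPM to 13.7, 13.7 and 12.7 TPM (log2 change -0.35, adjusted p = 0.00831, limma) and DHPS, named after its values were seen, from 54.0 ± 3.43 to 40.8 ± 5.00 TPM (-0.40, adjusted p = 0.0115, limma). DPH3, of the pathway that modifies eEF2, rose from 12.2 ± 0.654 to 17.6 ± 1.37 TPM (0.49, adjusted p = 0.00315, limma).

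Of 15 tested further initiation factors and paralogs, 3 rose and 3 fell, and with median-of-ratios scaling 1 was higher and 5 lower. Among them was MCTS1, a re-initiation factor, at 18.3 ± 0.589 against 12.5 ± 1.39 TPM (log2 change -0.52, adjusted p = 0.00348, limma). Of 8 further elongation factors and eEF1 partners, 5 rose and 1 fell, and with median-of-ratios scaling 1 was higher and 1 lower. Of 6 termination and recycling factors, GSPT2 rose (log2 change 0.44, adjusted p = 0.0121) and PELO fell (-0.26, adjusted p = 0.0162, limma), and with median-of-ratios scaling 1 was higher and 1 lower. Of 9 mitochondrial translation factors, 3 rose and 0 fell, among them MTIF3 (0.52, adjusted p = 0.00203) and MRRF (0.26, adjusted p = 0.00648, limma), and with median-of-ratios scaling 1 was higher and 2 lower. MRRF was then at 0.11 (adjusted p = 0.135), and it turned to -0.01 with length and GC regressed out (adjusted p = 0.885). The counts in these lists stand beside 30.2% higher and 13.2% lower among all tested genes, and beside 19.7% and 21.8% with median-of-ratios scaling.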

How the data were processed

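The RNA-seq libraries of A549 cells (3 siCEP20, 3 siCTR) were grouped by their titles. The authors trimmed reads with fastp 0.20.1, aligned them to hg38 with HISAT2 2.1.0, ran StringTie 2.0 and deposited TPM for each Ensembl gene. Second-strand cDNA was removed enzymatically, which marks strand in the library, and alignment used default settings. Whether quantification used strand, and with which annotation release, is not given in the sources used here, so reads of 21 factors that overlap another expressed gene may be shared. TPM holds no read counts, so depth is unknown and the authors' DESeq2 test was not repeated.

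Genes were named with GENCODE release 44. Genes whose mean reached 1 TPM were compared on log2(TPM + 1) with limma 3.58.1 in R 4.3.3 (eBayes with a trend, Benjamini-Hochberg adjustment over all tested genes). Length and GC content came from the Ensembl canonical transcript (99.7% of tested genes). Ratios were compared by exact permutation tests. Python 3.11.15, pandas 2.3.3, numpy 2.4.6, scipy 1.17.1 and matplotlib 3.10.9 were used. The fit was run on simulated data with independent normal noise and no shift of scale or transcript length between groups. That run therefore does not bear on such shifts.

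The members, lists and alternatives were chosen with earlier results of these data known. Values in each library were given for factors past the fold change thresholds, for the smallest adjusted p and the largest change in each complex and for ratio partners, and 2 genes were named in each other list by the smallest adjusted p. Other factors shown in full, such as EIF2A and EIF5A, were added after their values were seen. The addition of copies' TPM was also chosen after seeing the data. A leukocyte marker of the lists is not reported here.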

Additional observations from a re-analysis of the deposited data

How the results depend on the processing

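TPM fixes the total of each library, so every direction depends on the scale between libraries, and without counts the depth that limits low factors is unknown. With median-of-ratios scaling 9 factors were higher, 0 of them past the fold threshold, and 4 were lower past it, with 2905 and 3219 of all tested genes higher and lower. The correction for length and GC gave 9 and 0 higher factors, with 2934 and 3144 genes, and quantile normalization 2938 lower genes. Adding the TPM of copies, chosen after seeing the data, left 1 factor lower past the fold threshold and gave EIF3C 0.01. When the TOP form could start within 10 bases of the start, it was at 23 of 37 factors (62.2%) against 41.9% of 10511 tested genes.

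Median log2 changes with median-of-ratios scaling were -0.02 (eIF2), -0.11 (eIF2B), -0.07 (eIF3), 0.19 (eIF4F), -0.11 (eIF4A cofactors), -0.25 (relatives and inhibitors), 0.34 (poly(A)-binding proteins), -0.45 (eEF1) and -0.14 (EEF2 and EIF5A). With the length and GC correction they were -0.18 (start codon selection and joining), -0.04, -0.09, -0.04, 0.22, -0.11, -0.19 and 0.35 for the next 7 groups in that order and -0.05 for EEF2 and EIF5A. Quantile normalization gave -0.06 (eIF2B), -0.22 (relatives and inhibitors), -0.11 (eEF1) and 0.23 (EEF2 and EIF5A).

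Factors that changed sign, none called on the unscaled values except EEF1A1, were with median-of-ratios scaling EIF5, EIF2S2 and EIF2S3 (-0.02 each), EIF2B1 (-0.08), EIF2B2 (-0.05), EIF2B4 (-0.11), EIF3B (-0.07), EIF3D (-0.10), EIF3G (-0.03) and EIF3L (-0.08). With the length and GC correction they were EIF5 and EIF2B2 (-0.09 each), EIF2S2 and EIF2B4 (0.00 each), EIF2S3 and EIF3M (-0.04 each), EIF2B1, EIF3B and EIF3L (-0.06 each) and EIF3D (-0.03), and with quantile normalization EIF2B1 (-0.06), EIF2B2 and EIF2B4 (-0.03 each) and EEF1A1 (0.02). The cause of these changes was not tested.

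Leaving out 1 library gave 13 to 17 higher and 10 to 12 lower factors, 0 to 2 and 1 to 2 past the fold thresholds, 3344 to 4325 and 1486 to 1742 genes, and log2 changes of -0.97 to -0.84 for CEP20. Signs changed, over ranges of -0.12 to 0.04 for EIF1AX (0.03 without siCTR replicate 3, 0.04 without siCEP20 replicate 3), -0.01 to 0.37 for EIF5 (-0.01 without siCTR replicate 1), -0.10 to 0.00 for EIF3C (0.00 without siCEP20 replicate 1) and -0.07 to 0.03 for EIF4EBP2 (0.01 without siCTR replicate 2, 0.03 without siCEP20 replicate 1), and, with the lowest or highest value without siCEP20 replicate 3, -0.01 to 0.10 for EIF2B4, -0.02 to 0.12 for EIF3D and -0.12 to 0.02 for the EIF4A1 to EIF4A2 ratio. Group medians ranged from -0.06 to 0.20 (start codon selection), 0.02 to 0.20 (eIF2), -0.01 to 0.09 (eIF2B), 0.07 to 0.13 (eIF3), 0.28 to 0.43 (eIF4F), 0.00 to 0.08 (cofactors), -0.15 to -0.07 (relatives), 0.44 to 0.54 (poly(A)-binding proteins), -0.31 to -0.24 (eEF1) and 0.00 to 0.03 (EEF2 and EIF5A).

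Replicate numbers were shared by the groups, but deviations of same-numbered samples correlated at 0.157, -0.0614 and -0.0623, so the numbers were not taken as pairs. With the replicate block 14 factors were higher and 12 lower, EIF3F gained a call (adjusted p = 0.00892, limma), EIF4E lost its call (adjusted p = 0.0582), and 4274 genes were higher and 1857 lower.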
